A study of Mus musculus with 8 samples.

Results

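The livers of Abcb4 knockout mice that received norUDCA for 3 days were compared with those of untreated knockout mice. The comparison used 4 of the 8 arrays of the series, 2 in each group, chosen by the genotype and treatment on their labels. The described features are the 13815 probes, of 16728 tested, that were detected on both arrays of at least one of these groups. A probe was called detected on an array where its signal was 3 or more times the noise. All mice were FVB/N males aged 3 months, and the knockout groups shared the genotype Abcb4 KO. The other 4 arrays were 2 of wild type (WT) liver and 2 of knockout liver after 4 weeks of norUDCA. They entered the estimate of the spread and are quoted as levels beside the genes described. The 4 weeks are those of the sample labels. The deposited files of that group carry a different duration in their names, and which is right was not settled, so the duration behind the values quoted after 4 weeks is uncertain. The labels give no dose or route for norUDCA. The labels do not state that the 2 arrays of a group came from separate animals. The p-values then describe variation between these particular samples, and some of it may be technical.

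Abcb4 is the canalicular transporter that moves phosphatidylcholine from the hepatocyte into bile. Without it, bile acids in the ducts are not packed into mixed micelles, and the bile duct epithelium is injured, with ductular proliferation and fibrosis around the ducts. norUDCA is a homologue of ursodeoxycholic acid with a shortened side chain. It largely escapes amidation, is taken up again by the duct epithelium and returns to hepatocytes, and increases bicarbonate-rich bile flow.

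Of 29 listed hepatocyte markers, 6 genes had a described named probe, so the tissue label was checked only in part. The brightest was Mup1, a major urinary protein secreted by hepatocytes. Its log2 signal was 20.07 and 20.48 on the KO arrays and 20.68 and 20.31 after 3 days. Its close paralogues may share the probe. The other markers are given below, and of them Hsd3b4 was not detected on 1 array after 3 days. Detected gene probes made up 47.4% and 40.9% on the KO arrays and 47.9% and 42.6% after 3 days. The 129 positive control spots had median signals of 7913 and 6653 on the KO arrays and of 6634 and 6104 after 3 days. On the WT arrays they were dimmer, at 1691 and 2062, so array handling and genotype cannot be told apart in any value set against WT. The genotype itself was not checked, because Abcb4 was not analysed here. Across the tested probes, the 2 KO arrays differed from each other by a median of 0.34 in log2 size and the 2 arrays after 3 days by 0.29. A KO array and an array after 3 days differed by 0.40 to 0.48 over the 4 such pairs, more than either pair of replicates.

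In limma's fit over all 8 arrays, 38 of the 13815 described probes differed after 3 days at a Benjamini-Hochberg adjusted p under 0.05. Of these, 26 rose and 12 fell. Among all 16728 tested probes 39 passed, which is 0.233%, with 27 higher (0.161%) and 12 lower (0.0717%). The additional probe, which was higher, was detected on no array of either group. On the log2 scale, the passing described probes differed by at least 1.60, with a median size of 2.55. More than 8-fold changes were measured at 9 of the rises and 3 of the falls. Among the rising probes, 5 were detected on no KO array and 2 of the falling ones on no array after 3 days. By contrast, 20 rises and 10 falls were detected on all 4 arrays. A probe detected on no KO array was described only where both 3-day arrays detected it, and the reverse held for falls. The filter thus largely set the direction of such probes, here and below. The 366 of the former kind had a median log2 difference of 1.17, and the 278 of the latter -1.10. The count of passing probes depended on how the arrays were scaled. It was 15, with 13 higher and 2 lower, in the authors' series table, and 3, all higher, in the assay-normalized signal. Leaving out any single knockout array, treated or untreated, took the count to 0, with 1760 to 2586 probes at an unadjusted p under 0.05.

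None of the 38 passing probes had a gene name. Of them, 37 carried a Celera transcript identifier of the array design and 1 a GenBank accession, which could not be matched to the RefSeq gene table used. The largest rise was at the probe of mCG6071.2. Its log2 signal was 5.49 and 5.57 on the KO arrays, where it was not detected, and 12.02 and 11.89 after 3 days. It was therefore bright on both treated arrays and at noise on both untreated ones. The rise was 6.43 ± 0.52 (SE) in log2, which is at least 86.0-fold, with an adjusted p of 0.0431 by limma. Below, "at least" sets the bright mean against the dim probe's own signal or the array's lowest detected signal, whichever is higher. Where the dim probe's own signal was the higher on both arrays, the measured fold is given instead. Neither the bound nor the measured fold takes account of noise at undetected spots or of variation between arrays. After 4 weeks the probe was at 8.95 and 8.88, between the KO and the 3-day levels. The next largest rise, at mCG148266, ran from 6.56 and 7.20 (not detected) on the KO arrays to 13.89 and 12.36. It amounted to at least 75.8-fold, with an adjusted p of 0.0468.

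The largest fall was at the probe of mCG123798.1, with 9.28 and 9.69 on the KO arrays and 5.75 and 5.67 after 3 days. Untreated livers showed it on both arrays, while neither array after 3 days detected it, nor did those after 4 weeks, at 6.19 and 5.51. It fell by 3.77 ± 0.35 (SE) in log2, which is at least 12.2-fold, with an adjusted p of 0.0468 by limma. At mCG114037.1 the signal was 10.67 and 10.58 on the KO arrays and 7.24 and 7.33 after 3 days. That probe stayed detected on both treated arrays, and was 10.1-fold lower (adjusted p = 0.0468). After 4 weeks it was undetected, at 5.62 and 5.69.

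**Figure D1:**
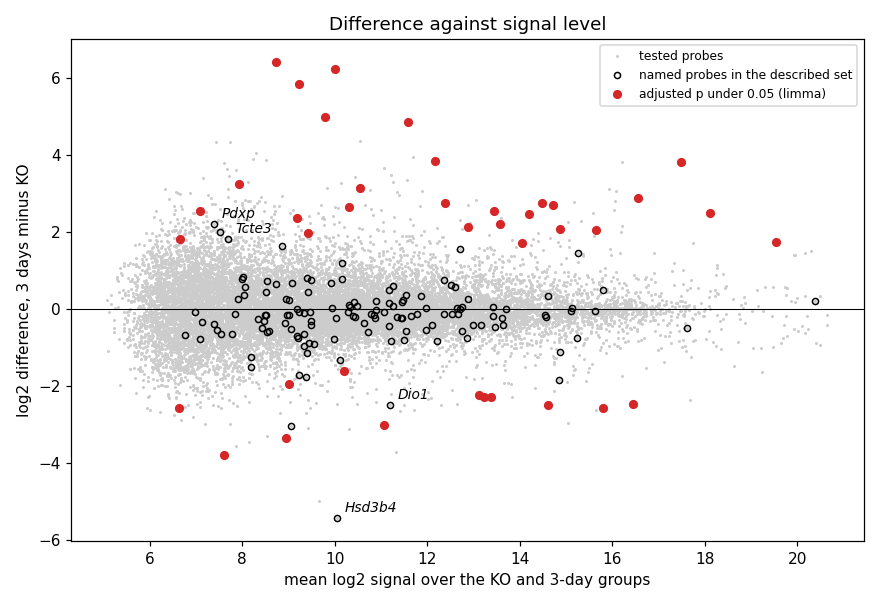
Each grey point is 1 of the 16728 tested probes, with the mean log2 signal over the KO and 3-day groups on the x axis and the log2 difference, 3 days minus KO, on the y axis. Red points are the 39 probes with an adjusted p under 0.05 by limma, and open circles are the 135 described probes that have a gene name, none of them red.

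Names could be given to 135 of the described probes, which stand for 133 genes, and 0 of them passed after adjustment in limma. At an unadjusted p under 0.05, 10 named probes were higher and 17 lower, which is 20.0% of the 135. Among all tested probes 16.1% reached that p, 7.94% as higher and 8.11% as lower. The groups did not overlap at 24 named probes that were higher and at 49 that were lower, together 54.1%, against 50.2% of all tested probes (22.2% higher and 28.0% lower). Over both directions together, both shares are near those of all tested probes. By direction the named probes leaned lower, with 17 lower to 10 higher at that p and 49 to 24 without overlap. The median difference was -0.14 in log2 over the named probes and -0.03 over all tested ones. With arrays scaled to the same median, that of all tested probes was 0.03, so its sign depends on the scaling. The 25 named probes with the smallest p, of 24 genes, are described next by role. Of these, 9 were higher after 3 days and 16 lower. At none did the 2 groups overlap, which largely follows from choosing them by p in this same comparison.

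**Figure D2:**
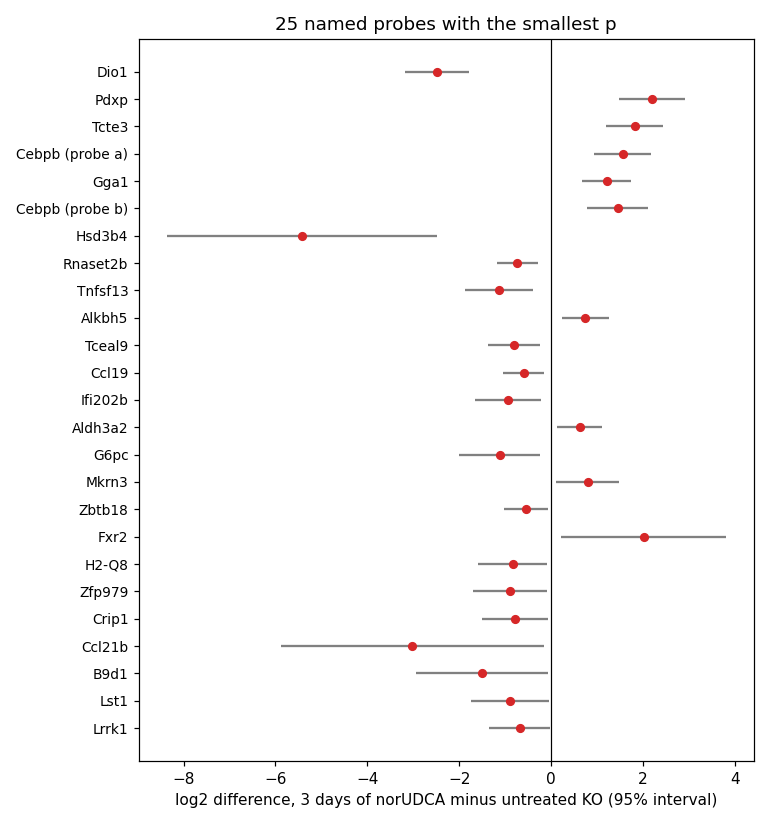
Log2 differences, 3 days of norUDCA minus untreated KO, of the 25 named probes with the smallest unadjusted p, each with its 95% interval from limma. The 9 probes to the right of 0 include both Cebpb probes, Pdxp and Tcte3, and the 16 to the left include Dio1 and Hsd3b4, whose interval is the widest.

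Among enzymes of hormone and glucose metabolism in hepatocytes, Dio1, Hsd3b4 and G6pc were lower after 3 days on both arrays. Hsd17b10, a steroid dehydrogenase by name, was instead higher by 0.34 in log2 (adjusted p = 0.611 by limma). Dio1 encodes the deiodinase that converts thyroxine to active thyroid hormone in liver and was the named gene with the smallest p. Its log2 signal was 12.13 and 12.75 on the KO arrays and 10.03 and 9.87 after 3 days. Both treated arrays lay below both untreated ones, and the level was 14.35 and 14.81 in WT and 9.84 and 9.93 after 4 weeks. The difference between 3 days and KO was -2.49 ± 0.29 (SE, n = 2 and 2 arrays), or 5.61-fold, with an adjusted p of 0.0526 by limma. Over the 21 alternatives tried, that adjusted p ran from 0.00107 to 0.236 and was below 0.05 in 5. Against WT, Dio1 was lower by -4.63 after 3 days (adjusted p = 0.00627 by limma). The spread behind that p came from all arrays of the series, the untreated KO arrays included. Untreated KO was already lower than WT, by -2.14. In both values, genotype and array handling cannot be told apart.

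Hsd3b4 encodes a member of the hydroxysteroid dehydrogenase family. Its log2 signal was 14.28 and 11.23 on the KO arrays and 6.01 (not detected) and 8.67 after 3 days. The groups did not overlap, but the replicates within each were far apart. The difference was -5.42 ± 1.20 (SE), with an adjusted p of 0.129 by limma. In WT it was 15.54 and 15.11, and after 4 weeks it was not detected, at 5.62 and 6.17. Other genes of its family are similar in sequence, and whether they share the probe was not tested. G6pc encodes the catalytic subunit of glucose-6-phosphatase, which releases glucose from hepatocytes. It was at 15.50 and 15.35 on the KO arrays and at 14.69 and 13.92 after 3 days. All 4 arrays detected it and the treated ones were the dimmer. The difference was -1.12 ± 0.36 (SE), or 2.17-fold, with an adjusted p of 0.228 by limma, and it was -0.73 without 3-day replicate 2. After 4 weeks G6pc stood at 14.59 and 13.94.

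Of the genes that were higher, Cebpb was measured by 2 probes. It encodes a transcription factor that regulates acute phase and metabolic genes in hepatocytes. The dimmer probe was at 11.89 and 11.95 on the KO arrays and 13.59 and 13.37 after 3 days. The brighter one was at 14.54 on both KO arrays and 16.12 and 15.86 after 3 days. At each probe, both treated arrays lay above both KO arrays and near the WT arrays, which were at 13.02 and 13.60 on the dimmer probe. The differences from KO were 1.56 ± 0.25 and 1.45 ± 0.27 (SE), with adjusted p of 0.0817 and 0.101 by limma. Against WT they were 0.17 and 0.14, with adjusted p of 0.709 and 0.789. After 4 weeks the dimmer probe was at 12.69 and 12.58, between KO and 3 days.

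Gga1 encodes an adaptor that sorts cargo from the trans-Golgi network to lysosomes. Its log2 signal was 9.43 and 9.70 on the KO arrays and 10.94 and 10.61 after 3 days. The treated arrays lay at the WT level of 10.85 and 10.72. The difference from KO was 1.21 ± 0.22 (SE), with an adjusted p of 0.0972 by limma. Against WT the difference was -0.01. After 4 weeks it was 10.04 and 9.87, above both KO arrays by less than the 3-day arrays were.

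Pdxp and Tcte3 were not detected on either KO array. Pdxp encodes the phosphatase of pyridoxal phosphate, the active form of vitamin B6. It was at 6.34 and 6.23 on the KO arrays and 8.27 and 8.71 after 3 days. Both treated arrays detected it, and neither WT array did, at 6.28 and 5.71. The difference was 2.20 ± 0.29 (SE), at least 4.60-fold, with an adjusted p of 0.0611 by limma. Tcte3 encodes a dynein light chain known from testis. It was at 6.84 and 6.72 on the KO arrays and 8.62 and 8.58 after 3 days. It too was detected on both treated arrays and on neither WT array. The difference was 1.82 ± 0.26 (SE), at least 3.53-fold, with an adjusted p of 0.0657 by limma. Against WT, where only a bound can be given, Pdxp was at least 4.84-fold higher (adjusted p = 0.0172) and Tcte3 at least 5.32-fold (adjusted p = 0.0138). Both stayed detected after 4 weeks, with Pdxp at 7.34 and 7.71 and Tcte3 at 8.39 and 7.88.

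**Figure D3:**
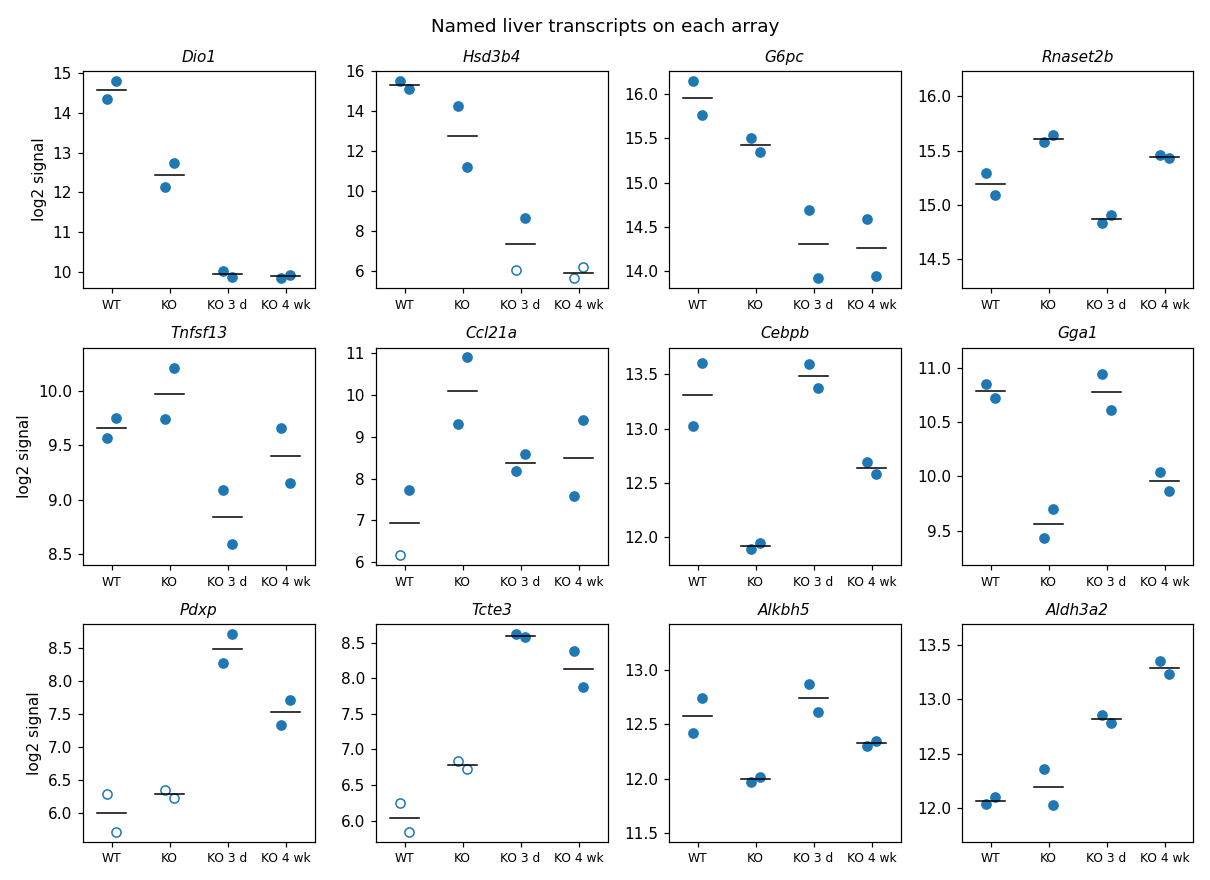
Log2 signal (y axis) of 12 named genes on each of the 8 arrays, by group (x axis), with filled points for detected probes, open points for undetected ones and a line at the mean of 2 arrays. For Cebpb the dimmer probe is drawn. Dio1, Hsd3b4 and G6pc are lower on both 3-day arrays than on both KO arrays, and Cebpb, Gga1, Pdxp and Tcte3 are higher.

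The promoters of Dio1, G6pc, Cebpb, Gga1, Pdxp and Tcte3 are shown so that their letters can be read beside the levels above. That of Hsd3b4 was not examined. Each is the 250 bases before the RefSeq start on GRCm38.p6, written 5′ to 3′ on the gene's strand. Those of G6pc (chr11:101367466-101367715), Cebpb (chr2:167688665-167688914), Gga1 (chr15:78876940-78877189) and Pdxp (chr15:78913669-78913918) lie on the plus strand, and those of Dio1 (chr4:107307169-107307418) and Tcte3 (chr17:15041560-15041809) on the minus strand. Capitals mark exact matches to 7 motifs, searched on both strands. The nuclear receptor motif was searched as AGGTCA. The TATA box was searched as TATAAA and its upstream partner as CCAAT. The letters GGGCGG stand for the GC box. For the E-box the letters were CACGTG. The cAMP response element was searched as TGACGTCA, and the C/EBP palindrome, the site of the family of Cebpb, as TTGCGCAA.
Dio1: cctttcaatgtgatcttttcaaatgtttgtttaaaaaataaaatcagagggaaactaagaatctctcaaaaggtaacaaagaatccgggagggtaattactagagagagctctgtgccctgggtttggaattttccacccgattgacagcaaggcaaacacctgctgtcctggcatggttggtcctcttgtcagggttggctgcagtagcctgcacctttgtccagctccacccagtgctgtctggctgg
G6pc: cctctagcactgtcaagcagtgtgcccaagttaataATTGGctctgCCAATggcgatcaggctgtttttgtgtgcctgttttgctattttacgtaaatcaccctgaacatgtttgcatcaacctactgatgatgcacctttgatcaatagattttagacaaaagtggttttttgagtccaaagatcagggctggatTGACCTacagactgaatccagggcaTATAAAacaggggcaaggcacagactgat
Cebpb: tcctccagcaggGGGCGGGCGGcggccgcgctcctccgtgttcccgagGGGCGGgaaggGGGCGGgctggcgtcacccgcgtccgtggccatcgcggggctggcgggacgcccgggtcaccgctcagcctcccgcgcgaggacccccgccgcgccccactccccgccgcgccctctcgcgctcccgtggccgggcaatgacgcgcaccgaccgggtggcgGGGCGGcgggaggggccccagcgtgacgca
Gga1: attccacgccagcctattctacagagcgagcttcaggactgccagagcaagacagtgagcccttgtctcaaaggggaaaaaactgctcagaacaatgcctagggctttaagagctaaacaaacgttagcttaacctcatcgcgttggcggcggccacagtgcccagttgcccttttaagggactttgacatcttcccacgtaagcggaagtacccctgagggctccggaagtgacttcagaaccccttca
Pdxp: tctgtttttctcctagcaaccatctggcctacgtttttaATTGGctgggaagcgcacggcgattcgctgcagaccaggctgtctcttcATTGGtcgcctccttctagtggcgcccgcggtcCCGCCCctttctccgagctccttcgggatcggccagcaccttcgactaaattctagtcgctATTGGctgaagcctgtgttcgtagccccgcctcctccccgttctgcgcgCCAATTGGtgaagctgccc
Tcte3: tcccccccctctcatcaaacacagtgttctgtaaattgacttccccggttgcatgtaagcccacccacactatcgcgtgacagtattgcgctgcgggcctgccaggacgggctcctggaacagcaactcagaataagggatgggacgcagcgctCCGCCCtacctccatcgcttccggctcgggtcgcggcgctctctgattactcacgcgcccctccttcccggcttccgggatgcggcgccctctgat
The windows differed in their matches. G6pc held AGGTCA on the minus strand 54 bases before the start, TATAAA 29 bases before it and CCAAT at 204 and, on the minus strand, 214 bases. Cebpb held GGGCGG 5 times, of which the pair at 238 and 234 bases overlaps. Pdxp held CCAAT 5 times, of which the pair at 19 and 16 bases overlaps on opposite strands, and GGGCGG once. Tcte3 held GGGCGG once, 96 bases before the start, and the windows of Dio1 and Gga1 held none of the 7 motifs. Over all 32851 RefSeq windows of this length, 14.0% held AGGTCA, 12.4% TATAAA, 33.8% CCAAT and 32.7% GGGCGG. The E-box was in 6.02%, the cAMP response element in 1.55% and the C/EBP palindrome in 0.164%. A match is a run of letters, and no binding was measured. Gga1 and Pdxp are close neighbours on chromosome 15, with 1 protein-coding gene, Sh3bp1, and the microRNA gene Mir6955 between them.

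The other named genes that were higher differed by less, except Fxr2, which encodes an RNA-binding protein. Fxr2 was not detected on the KO arrays, at 6.60 and 6.43, and was at 9.41 and 7.65 after 3 days. Its treated arrays were far apart, and the difference was 2.01 ± 0.73 (SE), with an adjusted p of 0.27 by limma. The 95% interval of that difference ran from 0.23 to 3.80, so no lower bound on the fold is given. Alkbh5, an RNA demethylase, was at 11.97 and 12.02 on the KO arrays and 12.87 and 12.61 after 3 days. As with Cebpb, the treated arrays lay near WT, at 12.42 and 12.74. The difference was 0.75 ± 0.21 (adjusted p = 0.18 by limma). Aldh3a2, which oxidises fatty aldehydes, was at 12.36 and 12.03 on the KO arrays and 12.86 and 12.78 after 3 days. It was higher again after 4 weeks, at 13.35 and 13.23. The difference at 3 days was 0.62 ± 0.20 (adjusted p = 0.227 by limma). Mkrn3, an imprinted ubiquitin ligase gene, was at 9.37 and 8.65 on the KO arrays and 9.82 and 9.79 after 3 days. The difference was 0.80 ± 0.28 (adjusted p = 0.258), and 0.44 without KO replicate 2. That of Fxr2 was 1.13 without 3-day replicate 1.

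Several named probes that were lower stand for genes with a known role in immune cells. They were grouped here by that direction after their values were seen, so immune genes that were not lower are left out. None of those grouped passed adjustment. Of the lists, inflammation and chemokines had 2 described probes, with 0 at an unadjusted p under 0.05 in limma, and antigen presentation had 1 of 2. Ccl19 and the Ccl21 genes encode the ligands of the chemokine receptor CCR7, which guides lymphocytes and dendritic cells. Ccl19 was at 8.78 and 8.90 on the KO arrays and 8.31 and 8.17 after 3 days. The difference was -0.60 ± 0.18 (SE), with an adjusted p of 0.217 by limma. One Ccl21b probe was at 9.76 and 11.37 on the KO arrays and 7.37 and 7.71 after 3 days, a difference of -3.02 ± 1.17 (adjusted p = 0.293). The other Ccl21b probe was at 9.41 and 11.12 and then 8.67 and 8.32, and only 1 of the treated arrays detected it. Its difference was -1.76 ± 0.84 (adjusted p = 0.378). The Ccl21a probe was at 9.30 and 10.90 and then 8.19 and 8.58, a difference of -1.71 ± 0.86 (adjusted p = 0.397). On each of the Ccl21 probes, the KO arrays were far apart and the treated ones close together. Without KO replicate 2, the Ccl21a difference was -0.91 and that of the latter Ccl21b probe -0.91 as well. The Ccl21 genes are near-identical copies, and their 3 probes cannot be told apart here. The 4 chemokine probes were lower without overlap, as were 28.0% of all tested probes. Of them, 2 reached an unadjusted p under 0.05, as 8.11% of all tested probes did on the lower side. Their median was -1.74 in log2. In whole liver, fewer cells of a type and less RNA per cell cannot be told apart.

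Tnfsf13 encodes a cytokine that sustains plasma cells. It was at 9.74 and 10.21 on the KO arrays and 9.09 and 8.59 after 3 days. The treated arrays also lay below WT, at 9.57 and 9.75. The difference from KO was -1.14 ± 0.30 (adjusted p = 0.173 by limma). H2-Q8, a class I histocompatibility gene, was at 11.46 and 11.83 on the KO arrays and 10.58 and 11.04 after 3 days, against 9.62 and 10.28 in WT. Its difference was -0.84 ± 0.31 (adjusted p = 0.274). H2-Q7, another gene of that class, was at 18.21 and 17.52 and then 17.42 and 17.35. Its difference was -0.49 ± 0.27 (adjusted p = 0.446), but -0.14 without KO replicate 1 and -0.83 without KO replicate 2. The 2 genes are similar in sequence, and whether their probes share signal was not tested. Ifi202b, an interferon-inducible gene, differed by -0.94 ± 0.29 (adjusted p = 0.22), and by -0.61 without KO replicate 2. Lst1, a gene of leukocytes, was at 9.55 and 10.45 on the KO arrays and 9.19 and 9.03 after 3 days, where 1 array detected it. One KO array lay close to the treated ones, and the difference of -0.89 ± 0.35 (adjusted p = 0.295) was -0.44 without KO replicate 2 and -1.34 without KO replicate 1. Bcl2a1b, an apoptosis inhibitor of blood cells, was at 9.90 and 10.83 and then 9.66 and 9.53, with an adjusted p of 0.555. Its difference of -0.77 was -0.31 without KO replicate 2 and -1.24 without KO replicate 1.

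No list of macrophage, lymphocyte and neutrophil or endothelial markers had a named gene on the array, so the immune genes could not be set beside those cells' defining markers. Hba-a1, the alpha globin of red blood cells, which was looked up after its values were seen, was at 15.93 and 15.63 on the KO arrays and 13.63 and 14.24 after 3 days. Both treated arrays were below both KO arrays, by -1.85 ± 0.87 (adjusted p = 0.375 by limma). The WT arrays, which entered that SE, were far apart, at 19.04 and 16.17. The part of blood cells in the lower immune genes was not tested.

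The remaining named genes that were lower had varied roles. Rnaset2b, a lysosomal ribonuclease with a near-identical copy, was at 15.58 and 15.64 on the KO arrays and 14.83 and 14.91 after 3 days. Its replicates were close in each group, and the difference of -0.74 ± 0.18 had an adjusted p of 0.151 by limma. After 4 weeks it was at 15.46 and 15.43, near KO. Tceal9 was at 12.52 and 12.73 and then 11.82 and 11.81, a difference of -0.81 ± 0.23 (adjusted p = 0.189). The others were Zbtb18, a transcriptional repressor, and the zinc finger gene Zfp979, which differed by -0.54 and -0.89. Crip1, a LIM domain protein, differed by -0.79, the kinase gene Lrrk1 by -0.68, and B9d1, a gene of the ciliary transition zone, by -1.50. Their adjusted p ran from 0.264 for Zbtb18 to 0.297 for Lrrk1. Leaving out KO replicate 2 took Zfp979 to -0.53, and leaving out 3-day replicate 2 took B9d1 to -0.91.

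Among 21 lists of liver pathways and cell type markers, 13 had a described gene with a name, 20 genes in all. The hepatocyte list had 6 such genes on 7 probes. At an unadjusted p under 0.05, both Cebpb probes were higher and Dio1, Hsd3b4 and G6pc lower, while Mup1 and Sult5a1 did not reach it. Its median was -0.13 in log2, beside -0.03 over all tested probes. On the list of fatty acid oxidation and lipid handling, Aldh3a2 reached that p and Plin3 and Pemt did not. Plin3, which coats lipid droplets, was at 12.76 and 11.90 on the KO arrays and 12.93 and 12.85 after 3 days, a difference of 0.57 ± 0.31 that was 0.14 without KO replicate 2 and 1.00 without KO replicate 1. Pemt, which makes phosphatidylcholine, the lipid that Abcb4 carries, was at 15.68 and 15.62 and then 15.57 and 15.66. Its groups overlapped, and the difference of -0.03 had a 95% interval of -0.50 to 0.43. Sult5a1, a sulfotransferase, overlapped too, at 12.78 and 12.09 and then 11.65 and 12.97, with an interval of -1.51 to 1.25. The stress gene Jun differed by 0.07.

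Of the markers of bile duct epithelium, 2 of 24 could be followed. Krt23, a keratin of ductular cells, was at 10.53 and 11.01 on the KO arrays and 10.23 and 8.67 after 3 days. One treated array stayed close to KO and the other was lower, and the difference of -1.32 had a 95% interval of -2.66 to 0.02 (adjusted p = 0.318 by limma). It was not detected in WT, at 6.67 and 6.10, and was at 7.76 and 7.29 after 4 weeks. Against WT, Krt23 was at least 8.26-fold higher after 3 days (adjusted p = 0.0385). Without 3-day replicate 2 its difference from KO was -0.54, and without 3-day replicate 1 it was -2.10. Wfdc2, a secreted epithelial protein, overlapped between the groups, at 9.20 and 10.19 and then 9.79 and 8.78. Its difference was -0.41 ± 0.44 (adjusted p = 0.709). After 4 weeks it was at 10.40 and 10.35. On the list of bile acid synthesis and transport, with 39 genes, only 1 gene had a named probe, and it was not among the described ones. Fgf21, a hepatic hormone, was not detected on the KO arrays and was detected on 1 array after 3 days.

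Agreement between probes of the same identifier was examined where exactly 2 probes were detected on all 4 arrays. This held for 562 identifiers. The 2 differences had the same sign at 409 of them, or 72.8%, with a median gap of 0.22 in log2. Their Pearson correlation was 0.65, given as a description since the probes share arrays. Where a probe differed by 2-fold or more, which held for 65 identifiers, the signs matched at 54 and were opposite at 11. Both probes differed 2-fold or more in the same direction at 23. For 4 identifiers a probe passed the adjusted threshold. At 2 of these both passed, with log2 differences of 2.50 and 2.90 at one and -2.46 and -2.57 at the other. At another, the passing probe differed by -1.60 and its partner by -1.72 (adjusted p = 0.0572 by limma). At the last, the probes disagreed, with 1.73 and -0.30. A further 56 identifiers had 3 or more such probes, and 1 of them had a passing probe. Its 3 probes differed by 4.99, 2.06 and 2.00, and the last of these did not pass (adjusted p = 0.0616), so they agreed in direction but not in size.

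**Figure D4:**
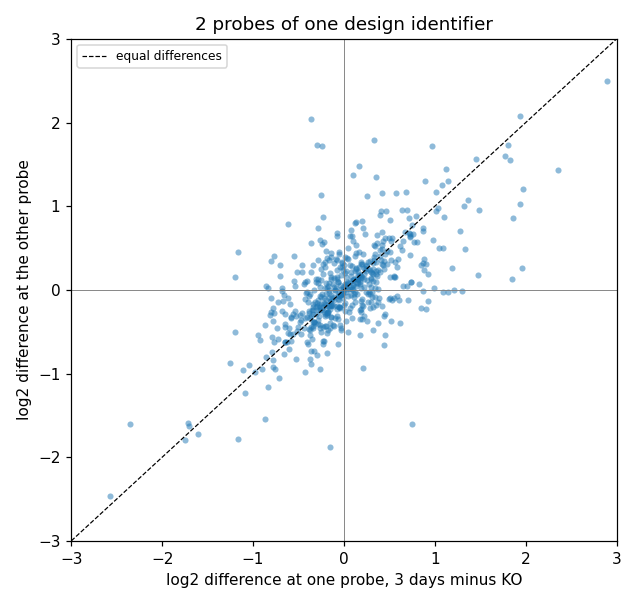
Log2 differences, 3 days minus KO, at both probes of each of the 562 identifiers with 2 probes detected on all 4 arrays, with a dashed line where the 2 are equal. At 409 identifiers the points lie in the quadrants of matching sign.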

How the data were processed

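Liver RNA was hybridised to single-colour Applied Biosystems arrays, labelled with digoxigenin and read by chemiluminescence. Per the file headers, the deposited files give a signal, which is an intensity on a linear scale, an assay-normalized intensity and the signal over noise, a score used as deposited. The image software is not given in the sources used here. The signal of 33012 gene probes was taken, and 4153 probes flagged at 5000 or above on some array were removed. The log2 signal of the others was quantile-normalized. The 16728 probes detected (signal over noise at or above 3) on 2 or more arrays were tested.

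limma 3.58.1 in R 4.3.3 (lmFit, contrasts.fit, eBayes) was fitted to all 8 arrays, with 4 residual degrees of freedom. Tests were two-sided, with Benjamini-Hochberg adjustment across all tested probes. The fit was tested on simulated data with independent noise at each probe. Such data do not represent effects of array scaling, and the outcome is not used here. Of 517 RefSeq accessions of the array design, 311 probes were named through a RefSeq gene table of GRCm38.p6, without versions, and 206 had no match. The 27930 probes with a Celera identifier were not named. Named in the text are named probes past the threshold, the 25 with the smallest p, a list of genes, up to 4 examples per gene list, and the 2 largest rises and 2 largest falls without a name. The members and lists were chosen with earlier results of these data known. The number of arrays limits the precision. The alternatives tried were the scaling, the filters, an offset, the flags, the arrays in the fit, a replicate block, a trend in the prior and leaving out each array.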

Additional observations from a re-analysis of the deposited data

How the results depend on the processing

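The number of tested probes past the adjusted threshold, 39 in limma's fit, moved with most choices. It was 48 with cyclic loess and 36 with the flagged probes kept. It was 90 with arrays scaled to the same median, 15 in the authors' series table, 3 in the assay-normalized signal and 131 with an offset of 50 added before log2. Requiring detection on both arrays of a compared group gave 181, and on all arrays 626. A trend in the prior gave 677. It was 0 without a filter on dim probes (3355 at an unadjusted p under 0.05), 0 with only the 4 arrays compared (2617) and 0 with a replicate block (2486). Leaving out each array gave 0 to 43, with 43 without either WT array and 0 without any other array. Without the WT group, an alternative chosen after seeing the data, it was 43. A group left with 1 array adds nothing to the spread, so leaving out either WT array only repeats that fit. Leaving out either array of the 4-week group likewise gives the same fit. The 21 alternatives therefore include repeats. The labels share only a replicate number: the replicate differences of KO and 3 days correlated at -0.03, so the block is not read as a pairing. Of 37 named probes, 24 could be tested in all 21 alternatives and 13 in 19 or 20, since stricter detection filters removed them. Among the alternatives run, 33 kept their direction and 11 passed in at least 1. Alternatives that changed only the filter on detection, the estimate of the spread or arrays outside the comparison left each difference unchanged. In those the direction could not turn, so keeping it carries no weight there. Leaving out 1 array moved 18 of the 37 by over 1.5 times. Pemt turned to 0.012 with cyclic loess, 0.084 with the same median and 0.023 in the series table, and ran from -0.082 to 0.014 over the arrays left out. Over the same, Wfdc2 ran from -0.91 to 0.10, Sult5a1 from -0.79 to 0.53 and Fgf21 from -1.06 to 0.77. The cause was not tested.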
